A study of Mus musculus with 9 samples.

Results

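The circadian clock genes were described here in newborn mouse epidermis. The members were all probe sets of the array whose annotation gives Per1, Per2, Per3, Cry1, Cry2, Nr1d1, Nr1d2, Dbp, Clock or Arntl (also called Bmal1) as the only gene symbol. These were 23 of 45037 probe sets and stood for 10 of 18193 genes. A probe set is a group of short oligonucleotides that reads 1 transcript, mostly near its 3′ end, and its value is on a log2 scale, so a difference of 1 is a doubling. The study measured trunk epidermis on 9 Affymetrix Mouse Genome U430 2.0 arrays, 4 from Alox12b knockout mice and 5 from wildtype mice, killed directly after birth. Alox12b encodes the 12R-lipoxygenase that the epidermis needs for its water barrier. All pups came from heterozygous knockout parents, the wildtype samples are labelled as strain 129S6, and no source used here gives the strain of the knockout samples, the deleted part of the gene or the hour of collection. The labels call the samples of a group biological replicates and do not say that each was 1 animal, so p-values measure only the spread between these samples.

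The circadian clock is a loop of transcription and repression that runs in nearly every cell, epidermal keratinocytes included. CLOCK and BMAL1 (the product of Arntl) pair and switch on genes through a DNA element called the E-box. Among these genes are the Per and Cry genes, whose proteins return to the nucleus and repress CLOCK and BMAL1, the Nr1d genes, whose products REV-ERBα and REV-ERBβ repress Arntl, and the output factor gene Dbp. Per1 and Per2 are also switched on acutely by cAMP, serum and glucocorticoid signals. In skin the clock is known for timing cell division and DNA repair. Because transcripts of the opposite arms peak at opposite times, their levels in a single sample depend on the hour at which it was taken.

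Several facts of the whole series bear on the values below. Alox12b read 10.84 to 11.60 in knockout samples, against 10.56 to 11.32 in wildtype samples, and with the deleted part unknown this checks nothing about the labels. Xist, the RNA of the inactive X chromosome, read 9.99 to 10.20 on the knockout arrays and 10.95 on wildtype array 4, against 3.23 to 4.32 on the other wildtype arrays, so genotype and sex can hardly be told apart. The 9 measured keratinocyte markers averaged 10.22 to 10.97 on the knockout arrays and 10.91 to 11.12 on the wildtype arrays, and the lowest means were on knockout arrays 3 and 4. Of their differences 4 were positive and 5 negative. For 2 of them, Dsc3 and Trp63, every knockout array was below every wildtype array, as for 935 of all 18193 genes, and the groups of the other markers overlapped. Neither passed, at limma adjusted p values of 0.136 and 0.0809. The 7 fibroblast markers averaged 5.37 to 8.92 in knockout, highest on array 4, and 5.15 to 7.45 in wildtype. The 8 hair follicle markers averaged 4.80 to 5.84 in knockout and 5.44 to 6.34 in wildtype, and the 6 adipocyte markers 3.36 to 3.84 in knockout and 3.48 to 6.28 in wildtype. The 8 melanocyte markers averaged 4.13 to 4.96 in knockout and 3.18 to 4.42 in wildtype, and the 8 smooth muscle markers 3.45 to 5.53 in knockout, highest on array 4, and 3.31 to 3.75 in wildtype. The 8 Langerhans cell and macrophage markers averaged 5.71 to 6.04 in knockout and 4.68 to 7.07 in wildtype, and the 8 endothelial markers 3.54 to 3.87 in knockout and 3.60 to 4.11 in wildtype. In such bulk samples fewer cells of a type and less RNA per cell cannot be told apart, and the part of these cells, of sex and of the hour in the clock values was not tested. Knockout arrays 3 and 4 and wildtype array 5 fitted their groups least well over all genes, with limma array weights of 0.32, 0.31 and 0.36, against 1.06 to 3.37 for the other arrays.

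In limma 0 of the 10 clock genes had an adjusted p under 0.05 between knockout and wildtype, where 1.24% of all genes did. Probe set by probe set it was 0 of 23, where 1.11% of all probe sets passed. Unadjusted, 4 of 10 had a p under 0.05, namely Per1, Cry2 and Nr1d1 with a higher mean in knockout and Nr1d2 with a lower one, and over all genes 17.8% did. The smallest adjusted p of the members was 0.0882. Of the 10 differences 6 were positive, where 53.5% of all genes were, and their median was 0.11, where it was 0.02 over all genes. Both arms of the loop held positive and negative differences.

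**Figure D1:**
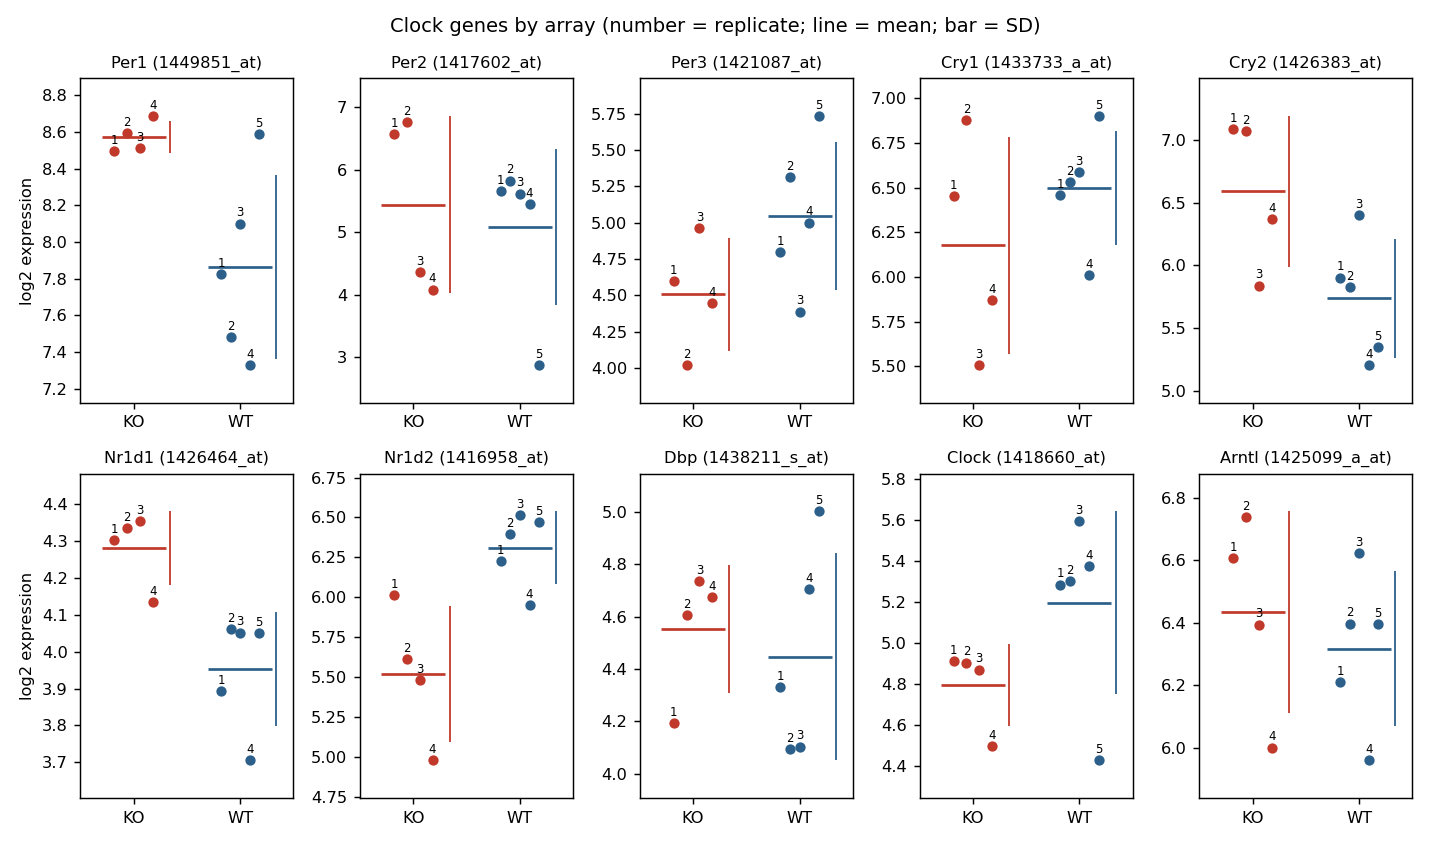
Log2 expression of the 10 clock genes, each by its brightest probe set, on 4 knockout arrays (KO, red) and 5 wildtype arrays (WT, blue). Each point is an array with its replicate number, the line is the group mean and the bar is the SD. The groups are apart only for Nr1d1, Per1 is level on all knockout arrays, and Per2 is widely scattered in both groups.

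Neither of the activator genes passed. Arntl, read by 1425099_a_at, had 6.61, 6.74, 6.39 and 6.00 on knockout arrays 1 to 4, and 6.21, 6.40, 6.62, 5.96 and 6.40 on wildtype arrays 1 to 5. The groups overlapped, with a log2 difference of 0.12 (95% interval -0.27 to 0.51, limma adjusted p of 0.754). Its other probe set, 1457740_at, read 3.20 to 4.35 in knockout and 3.26 to 4.46 in wildtype. Clock, the partner of Arntl, was read by 4 probe sets. The brightest, 1418660_at, had 4.91, 4.90, 4.87 and 4.49 on knockout arrays 1 to 4, and 5.28, 5.30, 5.59, 5.37 and 4.42 on wildtype arrays 1 to 5. All knockout values lay below those of wildtype arrays 1 to 4, while wildtype array 5 was lowest of all. The difference was -0.40 (95% interval -0.88 to 0.07, limma adjusted p of 0.356). The other Clock probe sets also had negative differences, of -0.07, -0.21 and -0.33, none past the threshold in the fit over all probe sets. On 1418659_at, with -0.07, knockout read 4.25 to 5.02 and wildtype 4.32 to 4.93, with knockout array 1 highest of all. On 1439314_at, with -0.33, knockout read 2.58 to 2.91 and wildtype 2.81 to 3.32. These last values are close to the array medians, and it is not known whether they lie above background.

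Per1, a repressor gene that also responds at once to cAMP and glucocorticoids, had a narrow range in knockout. Its single probe set, 1449851_at, read 8.49, 8.60, 8.51 and 8.69 on knockout arrays 1 to 4, and 7.82, 7.48, 8.10, 7.33 and 8.59 on wildtype arrays 1 to 5. Wildtype array 5 reached the knockout level and the other wildtype arrays were all below it. The mean was 8.57 ± 0.09 (SD, n = 4) in knockout and 7.86 ± 0.50 (SD, n = 5) in wildtype, a 1.63-fold higher level with a log2 difference of 0.71 (95% interval 0.21 to 1.21) that did not pass, at a limma adjusted p of 0.160. Without wildtype array 5 the difference was 0.89 and passed, at a limma adjusted p of 0.0336, in a fit where 1.54% of all genes did. It did not pass with any other single array left out, at limma adjusted p values of 0.161 to 0.304. Wildtype array 4, which shares high Xist with the knockout arrays, had the lowest Per1 value of all, and all 4 knockout arrays were above it.

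Cry2, a repressor and photolyase relative, had a positive difference that did not pass. Its single probe set, 1426383_at, read 7.08, 7.07, 5.84 and 6.37 on knockout arrays 1 to 4, and 5.90, 5.83, 6.40, 5.21 and 5.35 on wildtype arrays 1 to 5. Knockout arrays 1 and 2 stood above every wildtype array, knockout array 3 lay inside the wildtype range, and knockout array 4 just under wildtype array 3. The means were 6.59 ± 0.60 (SD, n = 4) in knockout and 5.74 ± 0.48 (SD, n = 5) in wildtype, 1.80-fold apart, with a log2 difference of 0.85 (95% interval 0.19 to 1.52, limma adjusted p of 0.193). Cry1, its paralog and the stronger repressor of the pair, did not pass, and its sign depended on the processing. Its single probe set, 1433733_a_at, read 6.45, 6.88, 5.51 and 5.87 on knockout arrays 1 to 4, and 6.46, 6.53, 6.59, 6.01 and 6.90 on wildtype arrays 1 to 5. The groups overlapped, and the difference was -0.32 (95% interval -0.91 to 0.27, limma adjusted p of 0.547). It was -0.10 without knockout array 3 and positive, at 0.17, with array weights. Knockout arrays 1 and 2 read higher than knockout arrays 3 and 4 in both Cry genes, and in Per2, Nr1d2, Arntl and Clock by their brightest probe sets. Of the other probe sets of these genes, only 1418659_at of Clock had the same order. It did not hold on 1416959_at (Nr1d2), 1457740_at (Arntl), 1435775_at and 1439314_at (Clock), or 1457350_at and 1417603_at (Per2). The share of all genes with this order was not counted. Over all probe sets the values also spread less on knockout arrays 3 and 4, with SDs of 2.05 and 2.03, than on arrays 1 and 2, with 2.19 and 2.17. The part of this in the order was not tested.

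Per2, a repressor gene like Per1, had positive differences on all 3 probe sets, none past the threshold, and the order of the knockout arrays differed between probe sets. The brightest, 1417602_at, on which the SD of each group exceeded the difference, read 6.57, 6.76, 4.36 and 4.08 on knockout arrays 1 to 4, and 5.66, 5.82, 5.62, 5.45 and 2.87 on wildtype arrays 1 to 5. Knockout arrays 1 and 2 were above all wildtype arrays, knockout arrays 3 and 4 were below wildtype arrays 1 to 4, and wildtype array 5 was lowest. The difference was 0.36 with a 95% interval from -1.23 to 1.95 (limma adjusted p of 0.819). On 1457350_at the order within knockout was another, at 5.43, 4.95, 6.16 and 5.54 on arrays 1 to 4, against 5.25, 4.97, 5.08, 4.76 and 3.31 on wildtype arrays 1 to 5. Knockout array 3, low on the brightest probe set, was highest here, and the difference was 0.85 (limma adjusted p of 0.295 over all probe sets). The third probe set, 1417603_at, read 4.51 to 5.10 in knockout and 3.42 to 4.76 in wildtype, a difference of 0.42. Wildtype array 5 had the lowest value on all 3 probe sets. Without the 3 arrays of lowest weight, knockout 3 and 4 and wildtype 5, the difference of the brightest probe set was 1.03 and passed, at a limma adjusted p of 0.00454. That choice of arrays was made after the data had been seen, and 4.55% of all genes passed in it.

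Per3, which is dispensable for the core loop and serves mainly as an output, was read by 6 probe sets. The brightest, 1421087_at, had 4.60, 4.02, 4.96 and 4.45 on knockout arrays 1 to 4, and 4.80, 5.31, 4.39, 5.00 and 5.74 on wildtype arrays 1 to 5. The groups overlapped, with a difference of -0.54 (95% interval -1.13 to 0.05, limma adjusted p of 0.317). The other 5 Per3 probe sets lay between 2.13 and 3.57 on every array, with differences from -0.21 to 0.16. These values are close to the array medians of 3.14 to 3.31, and without detection calls it is not known whether they lie above background.

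**Figure D2:**
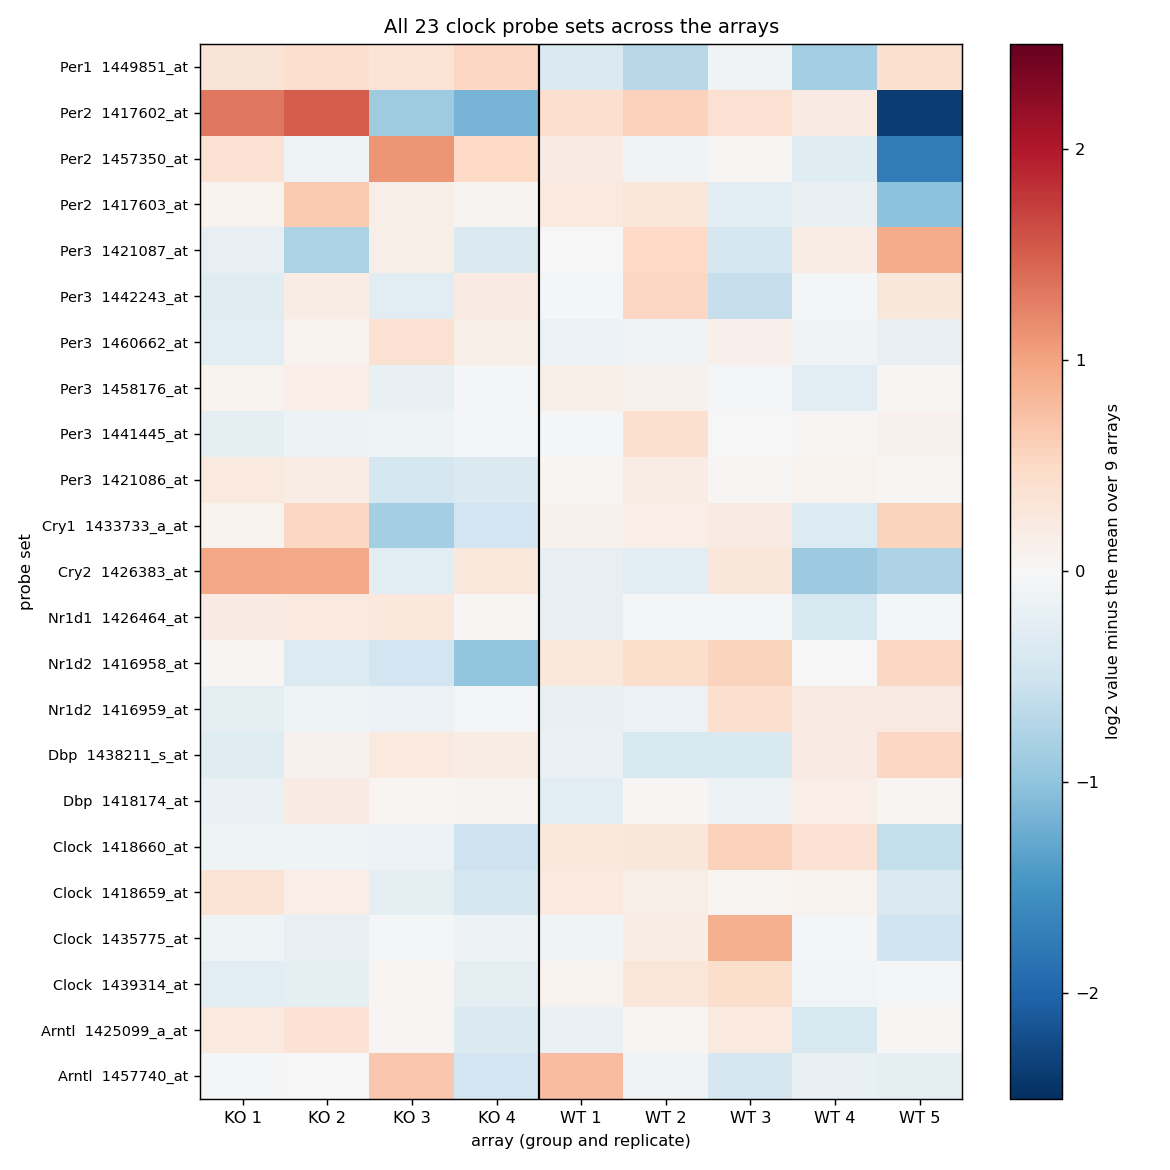
All 23 clock probe sets (rows) on 4 knockout and 5 wildtype arrays (columns). Colour gives the log2 value minus the probe set's mean over the 9 arrays, red higher and blue lower. The darkest blue cell is that of 1417602_at (Per2) on wildtype array 5, and the Per2 probe sets 1417602_at and 1457350_at have opposite colours on knockout arrays 3 and 4.

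The REV-ERB genes, which encode repressors of Arntl that bind heme, had differences of opposite sign, neither past the threshold. Nr1d2, read by 1416958_at, had 6.01, 5.61, 5.48 and 4.98 on knockout arrays 1 to 4, and 6.23, 6.39, 6.51, 5.95 and 6.47 on wildtype arrays 1 to 5. The groups overlapped only through knockout array 1, which read a little above wildtype array 4. The means were 5.52 ± 0.43 (SD, n = 4) in knockout and 6.31 ± 0.23 (SD, n = 5) in wildtype, a log2 difference of -0.79 (95% interval -1.23 to -0.35), which missed the threshold at a limma adjusted p of 0.0882 and was the smallest adjusted p among the members. Without knockout array 1 the difference was -0.95 and passed, at a limma adjusted p of 0.0428, in a fit where 1.34% of all genes did. It did not pass with any other single array left out, at limma adjusted p values of 0.102 to 0.186. The second Nr1d2 probe set, 1416959_at, read 2.22 to 2.40 in knockout and 2.27 to 2.88 in wildtype. Nr1d1, read by 1426464_at, had 4.30, 4.33, 4.35 and 4.13 on knockout arrays 1 to 4, and 3.89, 4.06, 4.05, 3.70 and 4.05 on wildtype arrays 1 to 5. It was the 1 member whose groups did not overlap in either direction. Of all 18193 genes, 571 (3.14%) were apart with knockout higher and 935 with knockout lower. The Nr1d1 difference was small, at 0.33 (95% interval 0.07 to 0.58, limma adjusted p of 0.190), a 1.26-fold higher level. Its mean level was below the median of all genes, and it is not known how far the values lie above background.

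Dbp, a transcription factor gene whose transcript has one of the widest daily swings in many mouse tissues, did not pass. Its brighter probe set, 1438211_s_at, read 4.19, 4.61, 4.74 and 4.68 on knockout arrays 1 to 4, and 4.33, 4.10, 4.10, 4.70 and 5.00 on wildtype arrays 1 to 5. Its highest and lowest values were both in wildtype, and the difference was 0.10 (95% interval -0.35 to 0.56, limma adjusted p of 0.812). Without wildtype array 5 it was 0.24. The other probe set, 1418174_at, read 3.00 to 3.36 in knockout and 2.89 to 3.33 in wildtype. Outside the clock genes, the transcripts whose values followed those of Dbp most closely over the 9 arrays were Ccdc61, Zfp827 and Vps37c, with a mean distance of 0.10, 0.11 and 0.12 on the log2 scale after centring. For Arntl they were Strn, Hsdl2 and Edem1, at 0.06 each.

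**Figure D3:**
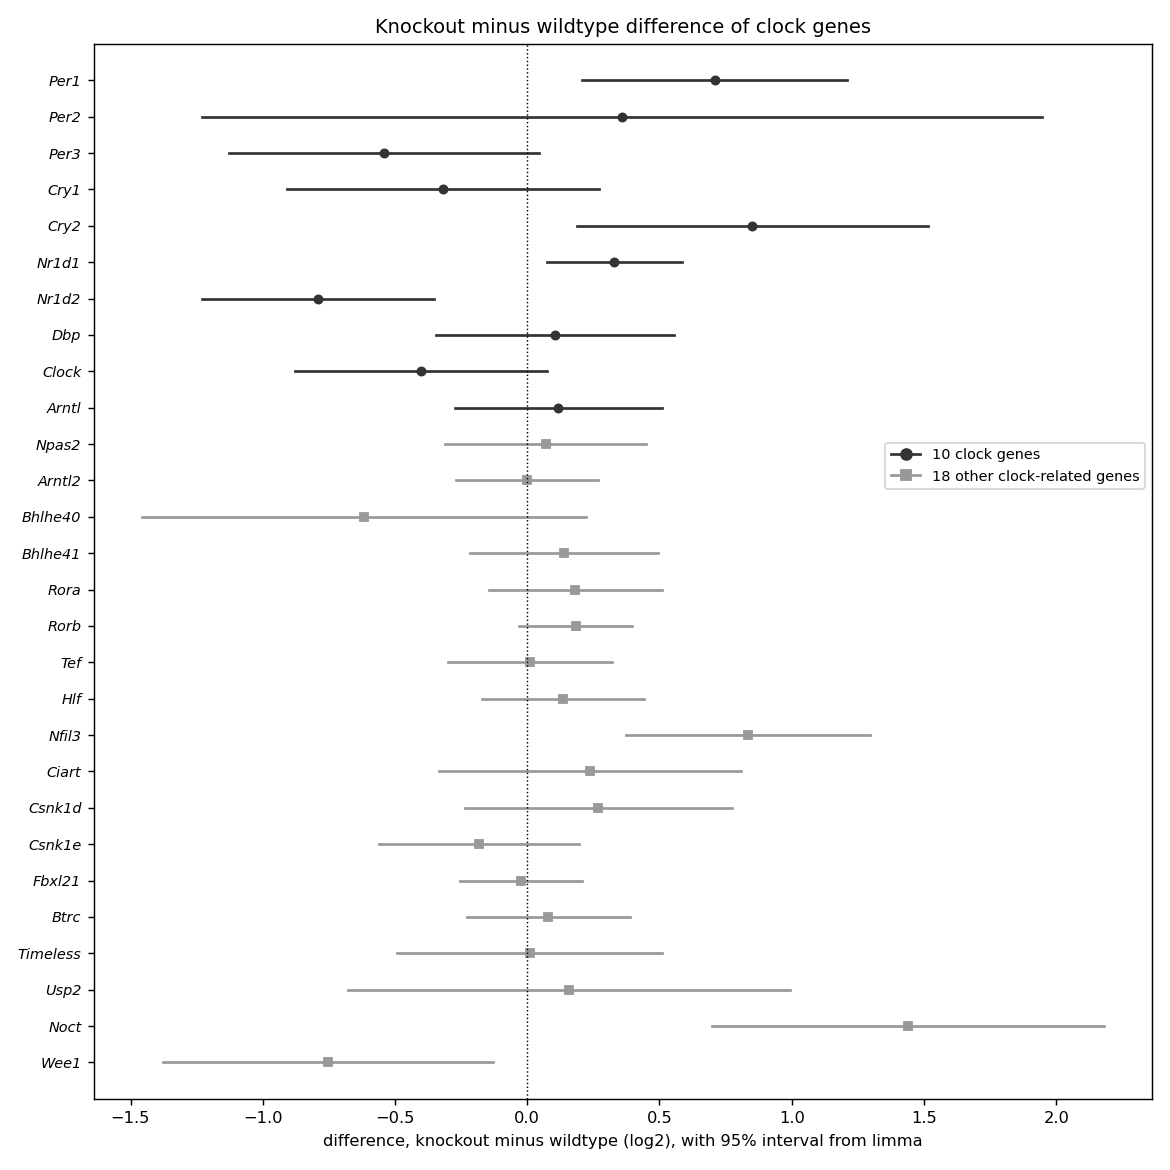
Difference of knockout minus wildtype on the log2 scale for the 10 clock genes (black circles) and 18 other clock-related genes (grey squares), with 95% intervals from limma. The intervals of Per1, Cry2, Nr1d1, Nr1d2, Nfil3, Noct and Wee1 leave out 0 before adjustment for the number of genes tested, and none of the differences passed after it.

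The following 4 promoter windows are shown because they hold elements of the kinds through which the clock reaches its genes or, in the second Per1 window, a cAMP response element core. The sequences are the 250 bases before a transcript start, taken from RefSeq on GRCm38.p6, the C57BL/6J assembly, and 9 of the 10 members, all but Per2, matched that table by symbol. Capitals mark matches on either strand to the E-box CACGTG, the D-box TTANGTAA, which DBP activates and NFIL3 represses, the ROR element core AGGTCA, which ROR factors and REV-ERBs share, and the cAMP response element core TGACGT. None of these motifs overlapped another in the windows shown.
Per1, first start (chr11:69098699-69098948, plus strand): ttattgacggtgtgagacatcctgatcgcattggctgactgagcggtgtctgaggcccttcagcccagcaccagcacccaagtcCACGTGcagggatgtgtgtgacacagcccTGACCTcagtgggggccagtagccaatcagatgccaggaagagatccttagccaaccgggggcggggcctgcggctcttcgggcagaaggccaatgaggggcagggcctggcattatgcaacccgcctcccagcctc
Per1, second start (chr11:69099902-69100151, plus strand): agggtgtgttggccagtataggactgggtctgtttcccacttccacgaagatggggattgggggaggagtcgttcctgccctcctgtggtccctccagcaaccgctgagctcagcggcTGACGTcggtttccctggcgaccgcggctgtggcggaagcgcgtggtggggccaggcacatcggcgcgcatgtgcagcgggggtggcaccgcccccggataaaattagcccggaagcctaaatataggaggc
Per3 (chr4:151044666-151044915, minus strand): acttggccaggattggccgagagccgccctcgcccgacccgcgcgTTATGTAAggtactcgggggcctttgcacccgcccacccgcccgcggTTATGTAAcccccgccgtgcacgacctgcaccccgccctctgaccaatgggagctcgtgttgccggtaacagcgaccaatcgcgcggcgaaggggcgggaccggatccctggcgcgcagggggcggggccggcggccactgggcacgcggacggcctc
Nr1d2 (chr14:18239107-18239356, minus strand): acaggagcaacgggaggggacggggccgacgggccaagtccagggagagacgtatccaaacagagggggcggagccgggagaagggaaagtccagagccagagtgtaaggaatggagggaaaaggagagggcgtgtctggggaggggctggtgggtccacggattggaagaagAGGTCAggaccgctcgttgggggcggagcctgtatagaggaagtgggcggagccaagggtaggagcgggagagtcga
The first Per1 window held an E-box 166 bases before the start and a ROR element core 137 bases before it, and the second held a cAMP response element core 132 bases before its own start. Per3 held a D-box at 205 and another at 158 bases, and Nr1d2 a ROR element core at 77 bases. Among the 9 members with a window, 2 had an E-box (Per1 and Cry1), 1 a D-box, 3 a ROR element core (Per1, Nr1d2 and Clock) and 1 a cAMP response element core. Over all 32851 promoter windows the shares were 6.02%, 2.06%, 14.0% and 6.47%. These shares are per window, whereas a member was counted if any of its windows held the motif, so the 2 are not on the same footing. A match is only a run of letters, and elements outside these windows were not searched.

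Of 20 other genes of the clock and its outputs 18 were measured, and 0 passed in limma, where 1.24% of all genes did. By unadjusted p 3 of the 18 were under 0.05 (Noct and Nfil3 higher, Wee1 lower), a share close to the 17.8% of all genes. Positive differences were 14 of 18, where 53.5% of all genes had one, and the median was 0.11. Noct encodes nocturnin, a rhythmic phosphatase of NADP(H) that was first described as a deadenylase. Its probe set 1425837_a_at read 9.86, 10.01, 8.76 and 9.18 on knockout arrays 1 to 4, and 8.10, 8.44, 8.35, 8.21 and 6.94 on wildtype arrays 1 to 5. Every knockout array was above every wildtype array, with a 2.71-fold higher mean, a log2 difference of 1.44 (95% interval 0.70 to 2.18) and a limma adjusted p of 0.0719. Noct passed with array weights and without the 3 arrays of lowest weight, at limma adjusted p values of 0.00088 and 0.000449. In those fits 9.04% and 4.55% of all genes passed, and the 3 arrays were chosen after the data had been seen. With Xist as covariate the Noct difference was 1.17, at a limma adjusted p of 0.693.

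Nfil3 encodes the repressor that competes with DBP at D-boxes and is also induced by cytokines. Its probe set 1418932_at read 7.37, 7.63, 7.48 and 7.59 on knockout arrays 1 to 4, and 6.49, 6.55, 7.16, 6.09 and 7.11 on wildtype arrays 1 to 5. The groups did not overlap, the knockout values were close together as for Per1, and the difference was 0.84 (95% interval 0.37 to 1.30, limma adjusted p of 0.0871). Without wildtype array 5 it was 0.94 and passed, at a limma adjusted p of 0.0492, in a fit where 1.54% of all genes did. With any other single array left out Nfil3 did not pass, at limma adjusted p values of 0.0667 to 0.197. Rorb, named after its values were seen, was the third of these genes whose groups did not overlap, reading 3.31 to 3.41 on knockout arrays and 3.07 to 3.26 on wildtype arrays. Groups were apart with knockout higher for the same 3.14% of all genes, and with knockout lower for 935 of 18193. None of the 18 was apart with knockout lower. The Rorb values were close to the array medians, and it is not known whether they lie above background. On its other probe sets, 1455799_at and 1439862_at, the groups overlapped.

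Wee1, a kinase gene that holds cells before mitosis and is driven by the clock, had a negative difference on its brighter probe set. That probe set, 1416773_at, read 6.22, 5.91, 5.36 and 5.78 on knockout arrays 1 to 4, and 7.00, 6.83, 6.69, 6.79 and 5.55 on wildtype arrays 1 to 5. Wildtype array 5 was inside the knockout range and the other wildtype arrays were above it. The difference was -0.75 (95% interval -1.38 to -0.13, limma adjusted p of 0.212). Without wildtype array 5 it was -1.01 and passed, at a limma adjusted p of 0.0220, in a fit where 1.54% of all genes did. With any other single array left out Wee1 did not pass, at limma adjusted p values of 0.156 to 0.381. The other probe set, 1416774_at, read 2.87 to 3.16 in knockout and 2.56 to 3.15 in wildtype, a difference of 0.09, and by the mean of both probe sets the gene's difference was -0.33 (limma adjusted p of 0.378). Bhlhe40, an E-box repressor gene that hypoxia and cytokines also induce, read 6.61 to 7.45 in knockout and 7.07 to 9.13 in wildtype, with the highest value on wildtype array 5. Its difference was -0.62 (95% interval -1.46 to 0.22, limma adjusted p of 0.417). It was -0.25 without wildtype array 5 and, with Xist as covariate, -0.04 with a standard error of 0.55.

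**Figure D4:**
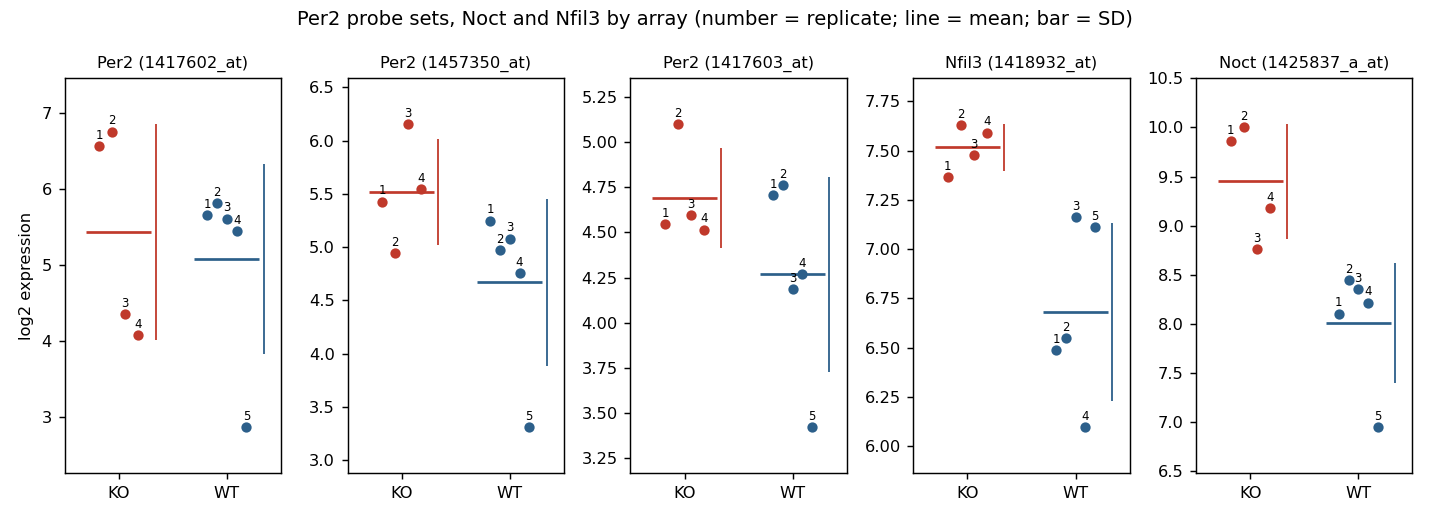
Log2 expression by array for the 3 Per2 probe sets, Nfil3 and Noct, with knockout (KO, red) left of wildtype (WT, blue), the mean as a line and the SD as a bar. Wildtype array 5 is lowest for Per2 and Noct but not for Nfil3, and the knockout and wildtype points of Nfil3 and Noct do not overlap.

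Which members passed depended on single arrays. Of the 10 members, wildtype array 5 held the highest wildtype value for 4 (Per1, Per3, Cry1 and Dbp) and the lowest for 2 (Per2 and Clock), and over all genes it held an extreme of its group for 61.1%. Wildtype array 4 held the lowest wildtype value for 6 members (Per1, Cry1, Cry2, Nr1d1, Nr1d2 and Arntl) and the highest for 0, and over all genes it held an extreme for 38.9%. Against that array alone, the 1 wildtype sample with high Xist, all 4 knockout arrays were higher for 4 members (Per1, Cry2, Nr1d1 and Arntl), as for 19% of all genes, and all 4 lower for 2 (Per3 and Clock), as for 22.5%. Those 4 members are among the 6 for which it was the lowest wildtype array. With array weights 4 members passed, Per1 by 0.87, Cry2 by 1.15 and Nr1d1 by 0.36 as higher and Nr1d2 by -0.63 as lower, with limma adjusted p values of 0.00812, 0.00735, 0.0375 and 0.0215. In that fit 9.04% of all genes passed, and the weights come from the same values that are tested.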

How the data were processed

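The deposited table of 45037 probe sets on 9 arrays holds log2 values computed by the authors. Per the submitters' processing notes the affy package was used. No source used here gives the background correction, normalization or probe summary. That the scale is log2 follows from the range of 1.43 to 14.46. The array annotation gave 1 gene for 34945 probe sets, several for 932 and none for 9160. Of the probe sets with 1 gene, 34741 were matched by gene number to the GRCm38.p6 table and took its symbol. Each gene was represented by its brightest probe set on average.

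All 18193 genes, and in a second fit all probe sets, were fitted by limma 3.58.1 under R 4.3.3, with genotype alone in the model, Benjamini-Hochberg adjustment over the whole table and a threshold of 0.05. Differences are knockout minus wildtype with 95% intervals, and sample titles gave groups and replicate numbers. At most 124 probe sets had identical values between 2 arrays of a group. On simulated data for this comparison over 18193 genes, the fit recovered 74% of genes with a true log2 change of 1 and 97% with one of 2, with 8 false calls. The simulated noise was independent between genes and of equal spread on every array. The real arrays differed in how well they fitted their groups, so these rates do not give the power of the real comparison.

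The members and lists were chosen with earlier results of these data known. Named genes were all members, the 4 other clock genes of largest difference when none passed, and, for Dbp and Arntl, the 3 genes of smallest mean absolute distance among those with at least 80% of the member's spread. Alternatives were other normalizations and probe set summaries, a level filter, eBayes settings, array weights, Xist as covariate, the replicate number as a block and each array left out. Leaving out 3 arrays of low weight was chosen after seeing the data.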

Additional observations from a re-analysis of the deposited data

Results flagged for a closer look

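In 8 of 56 groups of values for the clock probe sets and the 5 other clock genes named, 1 array lay far from the rest of its group by Dixon's test, which flags about 1 group in 20 by chance. In 5 of the 8 that array was wildtype array 5. It read 2.87 for Per2 on 1417602_at, where the other wildtype arrays read 5.45 to 5.82, and 3.31 on 1457350_at, where they read 4.76 to 5.25. It read 4.42 for Clock on 1418660_at, where they read 5.28 to 5.59. For Noct it read 6.94, where they read 8.10 to 8.44, and for Wee1 5.55, where they read 6.69 to 7.00. The Clock probe set 1418660_at also had a low value of 4.49 on knockout array 4, where the other knockout arrays read 4.87 to 4.91. For Per2 on 1417603_at knockout array 2 stood high, at 5.10, where the others read 4.51 to 4.60. For Arntl on 1457740_at wildtype array 1 stood high, at 4.46, where the others read 3.26 to 3.58.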

How the results depend on the processing

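The number of arrays, 4 and 5, limits every value. Of the 10 members 0 passed under quantile normalization, median centring, averaged probe sets, trend and robust eBayes settings, Xist as covariate and the replicate block. It was 0 of 9 under a level filter, which left out Nr1d1, and 0 of 9 with more specific probe sets, which left out Cry1. With probe sets averaged per gene the difference was -0.14 for Per3, -0.52 for Nr1d2 and -0.25 for Clock. With array weights 4 members, 3 member probe sets, 3 other clock genes (Noct, Nfil3 and Wee1) and 1644 of all genes passed. Without the 3 arrays of lowest weight 2 members (Per2 and Cry2), 2 member probe sets, 2 other clock genes (Noct and Wee1) and 827 of all genes passed. With 1 array left out in turn, 0 to 1 members, 0 to 1 member probe sets, 0 to 2 other clock genes and 62 to 281 of all genes passed. Nr1d2 passed when knockout array 1 was left out, and Per1 when wildtype array 5 was. Nfil3 also passed under quantile normalization, 1 other clock gene in all. With Xist as covariate 9 of all genes passed, and the differences were -0.19 for Per2, 0.11 for Cry1 and -0.043 for Dbp, each opposite in sign to the main value. Their standard errors in that fit, of 1.12, 0.38 and 0.32, were larger than the differences, so these signs are not settled. Xist nearly follows genotype on these arrays, so that fit can hardly tell them apart. Cry1 was also positive with array weights, at 0.17, and without the 3 arrays, at 0.27. Per2 ranged from -0.20 to 0.81 with 1 array left out, with a negative sign where knockout array 1 (-0.02), knockout array 2 (-0.08) or wildtype array 5 (-0.20) was left out. The replicate numbers gave no clear sign of pairing, since deviations of same-numbered arrays correlated at -0.21, -0.10, -0.21 and 0.18. Only knockout array 4 had its best match in the wildtype array of the same number. Correlations of so few arrays cannot exclude that some samples were paired. With the replicate block, which takes out wildtype array 5 because only that group has a number 5, 119 of all genes passed, 1 other clock gene (Wee1) did, and Per2 was -0.20. The cause of these changes was not tested. Per1, Per3, Cry2, Nr1d1, Nr1d2, Clock and Arntl kept their sign under every alternative that gave a value.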
